A study of Mus musculus with 10 samples.

Results

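Chemokine receptors that bring T cells to barrier tissue were followed in regulatory T cells with Tfam targeted for deletion. Regulatory T cells (Treg) are CD4 T cells that depend on Foxp3 and hold immune responses in check. Tfam encodes TFAM, the protein that packages mitochondrial DNA and is needed for its transcription. TFAM protein was not measured here. The 6 genes are Ccr4, Ccr6, Ccr8, Ccr9, Ccr10 and Gpr15, out of 22553 genes in the count table. They were chosen by role, as receptors for skin, lung and gut, but with earlier results of the same libraries known. Their differences between genotypes are therefore given as a description, with no p-value. The KO libraries came from mice with both Tfam alleles floxed (Tfamfl/flFoxp3Yfp-Cre/+) and the control (Ctrl) libraries from littermates with 1 floxed allele (Tfamfl/+Foxp3Yfp-Cre/+). All were C57BL/6 females heterozygous for the Foxp3 YFP-Cre allele, so Ctrl Treg also lose 1 Tfam copy where Cre acts. The sources used here give no ages. Cre is driven by Foxp3, which lies on the X chromosome. Random X inactivation in heterozygous females leaves a share of Treg without Cre, so the YFP-positive cells sorted here came from animals that still held Treg with unrecombined Tfam. Each genotype had 3 libraries of polyadenylated RNA, every one made from YFP-positive spleen and lymph node Treg of 2 to 3 mice pooled. No library came from skin, lung or gut itself.

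Chemokine receptors are G protein-coupled receptors that steer migration up a gradient of chemokine and help rolling lymphocytes to arrest on vessel walls. Different tissues display different ligands, so the set of receptors on a T cell bears on where it can go. CCR4 (ligands CCL17 and CCL22), CCR8 (CCL1, and CCL8 in the mouse) and CCR10 (CCL27 and CCL28) are found on T cells of skin, CCR4 also on those of lung. CCR6 (CCL20) serves Peyer's patches and inflamed epithelium, CCR9 (CCL25) the small intestine, and GPR15 guides Treg to the large intestine in the mouse.

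The proximal promoters of 4 of these genes are printed because 3 of them stand beside the genes that were lower in KO and the fourth, that of Ccr9, beside the member that differed least. Each is the 250 bases before the annotated start, from RefSeq on GRCm38.p6, written 5′ to 3′ on the gene's strand. RefSeq promoters were at hand for 5 of the 6 members, and Ccr10 is named only. Capitals mark matches, on either strand, to 6 short motifs. The motif of AP-1, the factor family of BATF, was searched as TGANTCA. That of the GATA factors, GATA3 among them in T cells, was AGATAA. The motif of RUNX factors was TGTGGT, and that of STAT factors, which act after cytokine signals, was TTCNNNGAA. For AHR, a receptor for dietary and microbial ligands, the core motif was GCGTG. The motif searched for ROR factors or retinoic acid receptors (RAR), which does not tell them apart, was AGGTCA. None of the matches found overlapped another.
Ccr4, chr9:114496545-114496794, minus strand: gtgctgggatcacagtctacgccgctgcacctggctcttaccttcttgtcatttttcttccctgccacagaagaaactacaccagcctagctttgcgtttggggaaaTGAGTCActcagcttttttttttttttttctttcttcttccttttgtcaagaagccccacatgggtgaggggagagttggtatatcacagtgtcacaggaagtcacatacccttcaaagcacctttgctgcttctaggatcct
Gpr15, chr16:58718873-58719122, minus strand: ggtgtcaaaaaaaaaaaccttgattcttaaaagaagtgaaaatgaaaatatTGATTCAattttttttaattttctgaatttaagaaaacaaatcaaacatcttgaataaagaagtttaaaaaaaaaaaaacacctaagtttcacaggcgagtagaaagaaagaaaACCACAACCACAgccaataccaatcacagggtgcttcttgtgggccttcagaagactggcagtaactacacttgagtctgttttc
Ccr8, chr9:120091883-120092132, plus strand: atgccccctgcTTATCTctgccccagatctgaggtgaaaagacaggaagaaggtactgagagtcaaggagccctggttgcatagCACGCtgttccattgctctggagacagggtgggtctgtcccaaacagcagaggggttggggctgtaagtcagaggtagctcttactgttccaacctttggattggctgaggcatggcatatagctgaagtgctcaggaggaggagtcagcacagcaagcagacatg
Ccr9, chr9:123766961-123767210, plus strand: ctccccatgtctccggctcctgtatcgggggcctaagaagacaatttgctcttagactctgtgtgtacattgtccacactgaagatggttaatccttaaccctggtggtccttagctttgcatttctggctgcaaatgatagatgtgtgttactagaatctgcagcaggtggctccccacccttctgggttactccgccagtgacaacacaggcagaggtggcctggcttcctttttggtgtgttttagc
The Ccr4 promoter held 1 match, an AP-1 motif that lies 137 bases before the start. The Gpr15 promoter held an AP-1 motif and 2 RUNX motifs that adjoin each other. The Ccr8 promoter held 1 GATA and 1 AHR motif, and that of Ccr9 held 0 of the 6 motifs. Ccr6 has 2 annotated starts. Before the first lie 2 STAT motifs and 1 ROR or RAR motif, and before the second 1 GATA motif. The motifs are common. Over 32851 promoters of the same length, 6.75% held AP-1, 9.99% GATA and 14.0% RUNX. STAT was held by 7.02%, AHR by 28.2% and the ROR or RAR motif by 14.0%. A match describes the letters and is not a bound site.

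The libraries held 19087757 to 23794028 gene counts in KO and 21419772 to 27490253 in Ctrl. Levels are given as CPM, counts scaled to library depth with TMM factors, which correct for library composition; CPM is not divided by transcript length, so levels of different genes are not ranked against each other. Tfam (ENSMUSG00000003923) stood at 15.6, 14.4 and 16.5 CPM in KO replicates 1 to 3, against 25.9, 30.6 and 42.4 CPM in Ctrl replicates 1 to 3 (log2 fold change -1.09 ± 0.17 SE, adjusted p = 0.02 by edgeR), so no library went against its label; the call was lost without Ctrl replicate 2 (adjusted p = 0.0551) or KO replicate 1 (0.109), 2 (0.0866) or 3 (0.0845). Foxp3 averaged 818 ± 47.95 CPM in KO and 743 ± 95.3 CPM in Ctrl (SD, n = 3 each; log2 fold change 0.14 ± 0.10, adjusted p = 0.613). The 8 Treg and T cell markers were all tested, summed to 2995 to 3164 CPM in KO and 3128 to 3299 CPM in Ctrl, and 0 of the 8 were called; in the fit with the replicate number as a block 1 was lower, Ctla4, at -0.22 ± 0.06 on the log2 scale (adjusted p = 0.0432). Several members are also used by other cells: Ccr6 by B cells and gamma delta T cells, Ccr9 by plasmacytoid dendritic cells, Ccr10 by plasma cells. The 8 B cell markers summed to 12.4 to 20.9 CPM in KO and 15.7 to 20.6 CPM in Ctrl, the 5 plasma cell markers to 1.80 to 4.04 and 2.23 to 4.78, the 5 plasmacytoid dendritic cell markers to 10.4 to 32.6 and 12.8 to 26.6, and the 4 gamma delta T and innate lymphoid cell markers to 6.23 to 7.76 and 5.27 to 6.10. The summed ranges of these lists overlapped between genotypes, except that the last was higher in every KO library than in every Ctrl library. That last sum was mostly Trdc, at a mean of 6.64 CPM in KO and 5.26 CPM in Ctrl (adjusted p = 0.39 by edgeR). Il23r went the other way (0.111 and 0.258 CPM), and Il23r, Sox13 and Zbtb16 did not pass the count filter. Most of the plasmacytoid dendritic cell sum was Pld4 (14.1 CPM in KO, 12.6 CPM in Ctrl), highest in both libraries numbered 2. Siglech of that list was at 0.324 and 0.438 CPM. The 10 macrophage and monocyte markers summed to 516, 1221 and 449 CPM in KO replicates 1 to 3 and to 399, 853 and 459 CPM in Ctrl replicates 1 to 3, so both libraries numbered 2 held the most. Conventional dendritic cell (4.98 to 13.7 CPM in KO, 4.64 to 10.9 in Ctrl), CD8 T cell (13.5 to 19.03 and 14.4 to 16.3), NK cell (3.504 to 5.93 and 3.36 to 4.05), neutrophil (0 to 0.506 and 0.219 to 0.499) and erythroid markers (5.45 to 11.7 and 4.61 to 7.38) were low in both. Without the block edgeR called 0 markers of any list; with it 3 of the 10 macrophage and monocyte markers were higher in KO, Adgre1 (log2 fold change 0.40 ± 0.09, adjusted p = 0.0273), Cd68 (0.40 ± 0.10, 0.0344) and Vcam1 (0.37 ± 0.08, 0.0233). Adgre1, Cd68, Vcam1, Ctla4, Trdc, Il23r, Sox13, Zbtb16, Pld4 and Siglech were picked with their values known. Of the listed markers, 0 had 0 counts in all 6 libraries. The part of other cell types in the receptor values was not tested; the receptor differences without both libraries numbered 2 are given below.

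Ccr10 (ENSMUSG00000044052), the receptor for the keratinocyte chemokine CCL27 and the mucosal chemokine CCL28, had the largest difference of the 6. It had 7, 12 and 6 counts in KO replicates 1 to 3, or 0.295, 0.584 and 0.315 CPM, against 79, 148 and 48 counts in Ctrl replicates 1 to 3, or 3.03, 6.73 and 1.75 CPM. Every KO library lay below every Ctrl library, and the Ctrl libraries themselves spread 3.84-fold, with replicate 2 highest and replicate 3 lowest. The log2 fold change of KO over Ctrl was -3.25 ± 0.56 (SE). From the 25 summed counts in KO and 275 in Ctrl, each divided by depth, the KO level was 0.108 of the Ctrl level, with an exact binomial 95% interval of 0.0689 to 0.163 that covers counting error only. Between KO libraries the coefficient of variation was 40.5%, where counting alone gives 35.8%; between Ctrl libraries it was 67.3%, against 11.3% from counting. Ccr10 was the 1 member that met the count filter only through the Ctrl group. It also overlaps Cntnap1 in the annotation, and with the strand setting of the counting not given, reads from the shared stretch cannot be assigned with certainty. Cntnap1 averaged 1.07 ± 0.267 CPM in KO and 2.61 ± 1.01 CPM in Ctrl (SD, n = 3 each; log2 fold change -1.28 ± 0.33, adjusted p = 0.14).

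Gpr15 (ENSMUSG00000047293), the colon homing receptor, was lower by 2.01 on the log2 scale in KO (-2.01 ± 0.18 SE), which left 0.248 of its Ctrl level. Its level was 2.19, 3.07 and 2.89 CPM in KO replicates 1 to 3, against 9.91, 12.7 and 10.3 CPM in Ctrl replicates 1 to 3. The groups were far apart, with 52 to 63 counts per KO library and 258 to 281 per Ctrl library. Between KO libraries the coefficient of variation was 16.9%, where counting alone gives 13.3%. Between Ctrl libraries it was 13.8%, against 6.06% from counting.

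Ccr4 (ENSMUSG00000047898), which serves entry into skin and lung, was at 12.4, 10.7 and 8.76 CPM in KO replicates 1 to 3, against 34.5, 46.8 and 25.1 CPM in Ctrl replicates 1 to 3. The log2 fold change was -1.73 ± 0.22 (SE). The lowest Ctrl library still stood above the highest KO library, but the Ctrl level varied 1.87-fold, a coefficient of variation of 30.7% where counting gives 3.42%. Ccr8 (ENSMUSG00000042262), a receptor of skin T cells and of Treg in tissue, was at 17.3, 14.8 and 12.96 CPM in KO, against 29.0, 29.0 and 22.9 CPM in Ctrl (replicates 1 to 3; log2 fold change -0.84 ± 0.13). The groups did not overlap, and Ccr8 kept 0.559 of its Ctrl level, the smallest difference among the 3 receptors of skin.

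Ccr6 (ENSMUSG00000040899), the CCL20 receptor, was at 13.8, 13.7 and 12.3 CPM in KO replicates 1 to 3 and at 26.8, 29.99 and 22.5 CPM in Ctrl replicates 1 to 3. The KO libraries lay within 1.12-fold of each other, below all Ctrl libraries, and the log2 fold change was -0.99 ± 0.12 (SE). Ccr9 (ENSMUSG00000029530), the CCL25 receptor of small intestinal homing, differed from the other members in that its groups overlapped. It was at 11.9, 9.05 and 9.91 CPM in KO, against 12.4, 11.0 and 11.4 CPM in Ctrl (replicates 1 to 3), with KO replicate 1 above Ctrl replicates 2 and 3. The log2 fold change was -0.17 ± 0.13 (SE). In the annotation Ccr6 and Ccr9 each overlap a long noncoding RNA gene, Gm33799 and Gm17021; no separate counts were at hand for these.

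**Figure D1:**
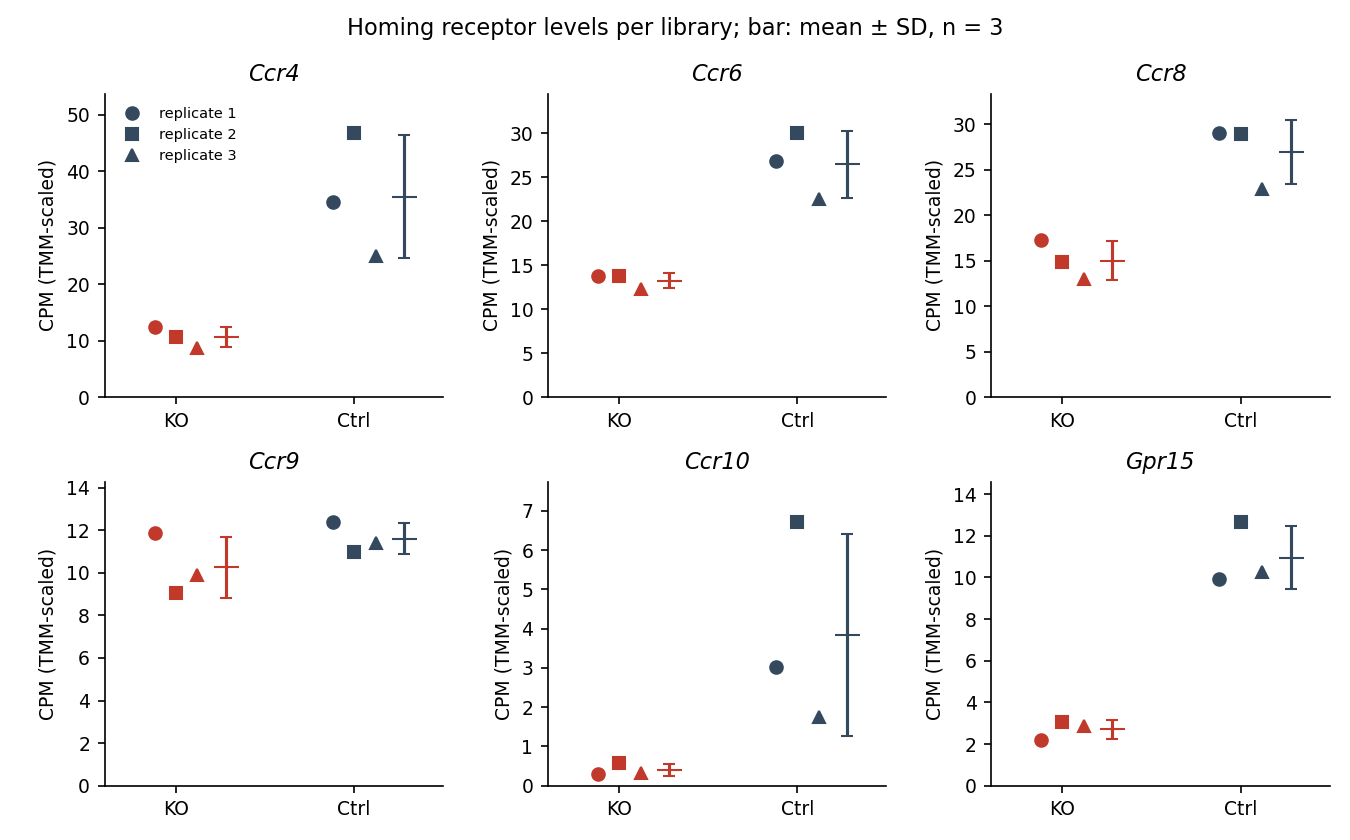
TMM-scaled CPM (vertical axis, linear, from 0) of the 6 homing receptors in the 3 KO and 3 Ctrl libraries, with symbols for replicate numbers and a bar for the mean ± SD (n = 3). The groups are apart for Ccr4, Ccr6, Ccr8, Ccr10 and Gpr15 and overlap for Ccr9, and Ctrl replicate 2 is the highest library for Ccr4, Ccr6, Ccr10 and Gpr15.

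The count filter kept all 6 members, and their fitted values were all below 0, with a median log2 fold change of -1.36, beside -0.0045 over the 11990 tested genes, of which 51.2% were below 0. KO libraries did not overlap Ctrl libraries for 5 of the 6 and lay below them; this holds for 10.4% of all tested genes. In the edgeR fit the same 5 were called lower, against 1.39% of all tested genes (167 of 11990), and 0 were called higher, against 0.100% (12 of 11990). Since the genotype difference was known when the members were chosen, and Ccr10 met the filter only through Ctrl, these counts are no test of the members and nothing is read from them. The number called was also sensitive to single libraries. Leaving out Ctrl replicate 1, 2 or 3 gave 3, 4 and 5 members. Leaving out KO replicate 1 gave 1 (Gpr15), and leaving out KO replicate 2 or 3 gave 2 (Ccr6 and Gpr15). Calls over all tested genes dropped as well, from 167 lower to 84, 82 and 166 without Ctrl replicate 1, 2 or 3. Without KO replicate 1, 2 or 3 they were 26, 61 and 63. Because these are bulk samples, fewer cells that carry a receptor and less RNA per cell cannot be told apart.

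The sizes of the differences moved less than the calls. With 1 library left out, the log2 fold change lay between -3.62 and -2.58 for Ccr10, between -2.10 and -1.87 for Gpr15, between -1.93 and -1.48 for Ccr4, between -1.10 and -0.89 for Ccr6, between -0.95 and -0.74 for Ccr8 and between -0.28 and -0.08 for Ccr9. Ctrl replicate 2 moved Ccr10 and Ccr4 most, and both were nearer 0 without it. Without both libraries numbered 2, which held the most macrophage RNA, the values were -2.95 (Ccr10), -1.998 (Gpr15), -1.49 (Ccr4), -0.92 (Ccr6), -0.78 (Ccr8) and -0.13 (Ccr9). The order of the 6 was the same in each of these fits. Same-numbered KO and Ctrl libraries deviated together across genes, and within each of the 3 numbers every member was lower in KO. The difference in log2 CPM within numbers 1, 2 and 3 was -1.48, -2.12 and -1.51 for Ccr4 and -3.18, -3.43 and -2.33 for Ccr10. It was -2.15, -2.03 and -1.82 for Gpr15, -0.96, -1.13 and -0.87 for Ccr6 and -0.75, -0.96 and -0.82 for Ccr8. For Ccr9 it was -0.06, -0.28 and -0.20. Within number 2, Ccr4 lay below Gpr15, the reverse of their order in the fits. In a fit with the replicate number as a block the standard errors were smaller, with values of -3.23 ± 0.28 for Ccr10, -2.02 ± 0.14 for Gpr15, -1.71 ± 0.12 for Ccr4, -0.99 ± 0.09 for Ccr6, -0.84 ± 0.08 for Ccr8 and -0.18 ± 0.10 for Ccr9 (SE).

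**Figure D2:**
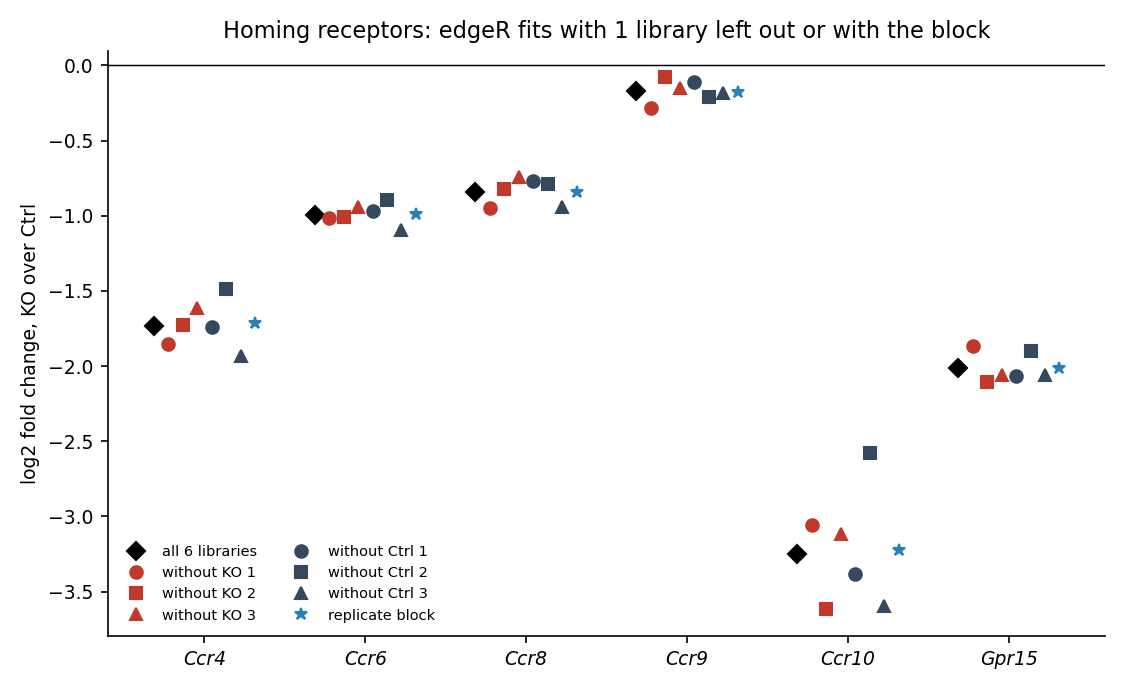
Log2 fold change of KO over Ctrl (vertical axis) of each homing receptor with all 6 libraries (black diamond), with each KO (red) or Ctrl (dark blue) library left out, and with the replicate number as a block (light blue star). Ccr10 has the widest range, -3.62 to -2.58, and its value nearest 0 is the fit without Ctrl replicate 2.

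The order of the libraries was only partly shared by the members. Among Ctrl libraries, replicate 2 was highest for 4 of the 6 (Ccr4, Ccr6, Ccr10 and Gpr15). Replicate 3 was lowest for 4 (Ccr4, Ccr6, Ccr8 and Ccr10), replicate 1 for Gpr15 and replicate 2 for Ccr9. Among KO libraries, replicate 1 was highest for Ccr4, Ccr6, Ccr8 and Ccr9, and replicate 2 for Ccr10 and Gpr15. The lowest KO library was replicate 3 for Ccr4, Ccr6 and Ccr8, replicate 1 for Ccr10 and Gpr15 and replicate 2 for Ccr9. Over the 6 libraries, Pearson's r between log2 CPM of 2 members was 0.896 to 0.995 among the 5 other than Ccr9 and 0.392 to 0.699 between Ccr9 and any of them. These points share their library and depth. For the 5 genes they also hold the genotype difference, and its part in r was not separated.

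The remaining chemokine receptor genes were examined as a family. Of the 20 other receptors listed, 11 passed the count filter, and 5 fell, 0 rose and 6 did not pass in KO; 1.39% of all tested genes fell. The median log2 fold change was -0.68. Cxcr3, a receptor of type 1 inflammation, fell to 6.92, 7.79 and 6.03 CPM in KO replicates 1 to 3, against 39.8, 54.8 and 41.2 CPM in Ctrl (log2 fold change -2.71 ± 0.15 SE, adjusted p = 0.000434). Ccr2, the CCL2 receptor of inflammatory recruitment, fell by 2.92 (adjusted p = 0.00141) and Cxcr6, the CXCL16 receptor of tissue T cells, by 1.63 on the log2 scale (adjusted p = 0.00798). Ccrl2, a chemerin-binding receptor, fell by 1.18 (adjusted p = 0.0202). The receptors of lymphoid homing and retention gave other values: Ccr7, which brings T cells into lymph nodes, was at 0.14 ± 0.06 on the log2 scale (adjusted p = 0.42), and Cxcr4, the CXCL12 receptor, at -0.05 ± 0.14 (adjusted p = 0.925). Cxcr5, the receptor of B cell follicles, was at -0.68 ± 0.14 (adjusted p = 0.0677); the replicate block brought it to an adjusted p of 0.0026, a call. Ccr7, Cxcr4 and Cxcr5 were also named after their values were seen. The number lower was 3 without Ctrl replicate 1, Ctrl replicate 2, KO replicate 2 or KO replicate 3, and 2 without KO replicate 1. The call of Cxcr6 ended without KO replicate 1 (adjusted p = 0.066) and that of Ccrl2 without any library but Ctrl replicate 3 (0.0571 to 0.13).

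**Figure D3:**
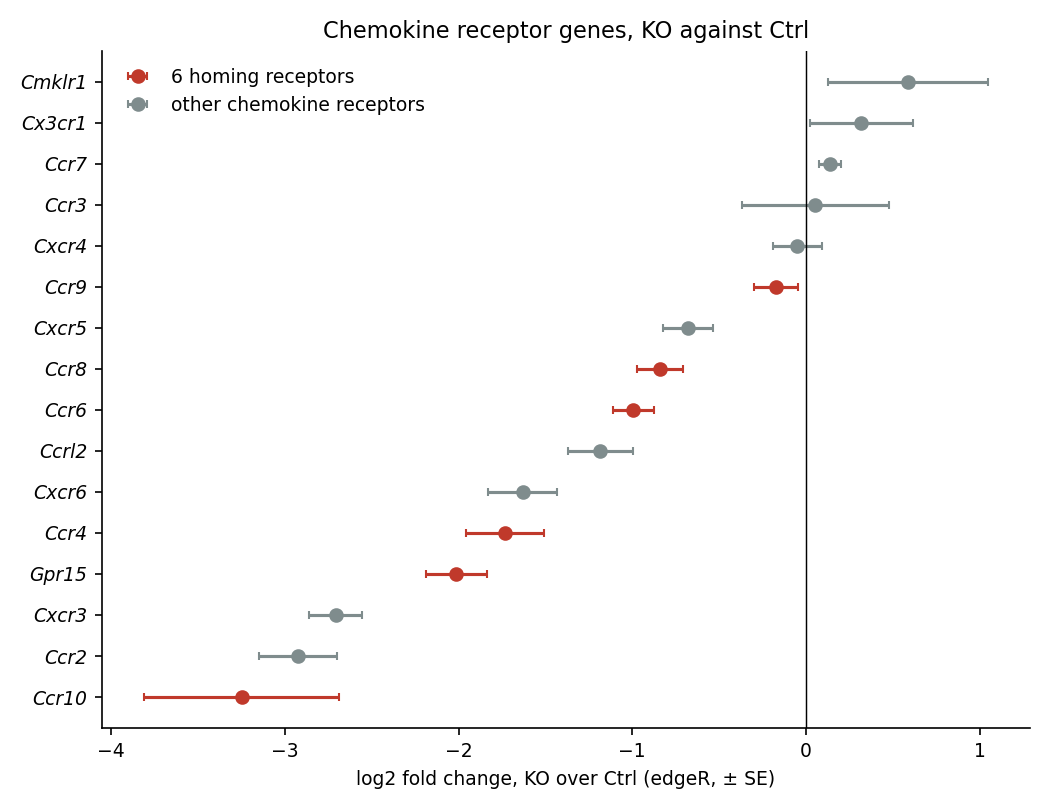
Log2 fold change of KO over Ctrl (horizontal axis, edgeR, bars are SE, 3 libraries per group) for the 6 homing receptors (red) and 10 of the 11 other chemokine receptor genes that passed the count filter (grey). Ccr10 is lowest at -3.25, Ccr9 at -0.17 stands with Cxcr4 near 0, and Ccr7 is at 0.14.

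Few ligands of these receptors were measured. Of 10 ligand genes, among them the mouse gene of the GPR15 ligand (2610528A11Rik), 2 passed the count filter and 0 were called. Ccl25, the CCR9 ligand, averaged 3.33 ± 0.404 CPM in KO and 2.74 ± 0.692 CPM in Ctrl (SD, n = 3 each; log2 fold change 0.29 ± 0.23, adjusted p = 0.658). Ccl27a, the CCR10 ligand of skin, averaged 0.680 ± 0.130 CPM in KO and 0.659 ± 0.0695 CPM in Ctrl (log2 fold change 0.04 ± 0.30, adjusted p = 0.976). Ccl27b had 0 counts in all libraries.

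Few genes of the machinery through which the receptors signal were called. The list held 54 tested genes for G proteins, arrestins, receptor kinases, RGS proteins and the cytoskeletal path to migration. Of these 0 fell, 1 rose and 53 did not pass, with a median log2 fold change of -0.03. Of all tested genes 1.39% fell and 0.100% rose, so the number that fell was near the background. The share that rose was above it but rests on 1 gene. The gene that rose was Rasgrp2, which activates the integrin regulator Rap1, at 500.4 ± 15.6 CPM in KO and 393 ± 18.9 CPM in Ctrl (SD, n = 3 each; log2 fold change 0.35 ± 0.07, adjusted p = 0.0451). Rasgrp2 was called in no fit with 1 library left out (adjusted p 0.0562 to 0.214). With the replicate block 5 genes were lower (Gnaq, Gng2, Rgs2, Rgs16 and Tiam1) and 3 higher (Rasgrp2, Pik3r5 and Plcb2), where 4.39% and 1.97% of all tested genes were; those beyond Rasgrp2 were named after their values were seen.

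Adhesion molecules and enzymes of selectin ligands act with chemokine receptors at the vessel wall. Of 23 tested, 4 fell, 0 rose and 19 did not pass, with a median of -0.16, where 1.39% of all tested genes fell and 0.100% rose. With the replicate block 7 were lower, against 4.39% of all tested genes. Itgb1, the integrin beta 1 chain, averaged 155 ± 15.5 CPM in KO and 372 ± 76.2 CPM in Ctrl (SD, n = 3 each; log2 fold change -1.27 ± 0.14, adjusted p = 0.00668). Itgae, the chain of CD103 that binds E-cadherin on epithelium, fell by 1.30 (adjusted p = 0.0162). Of the enzymes that build selectin ligands, Chst2, a sulfotransferase, fell by 1.49 (adjusted p = 0.00141) and Fut7, the fucosyltransferase needed for the skin homing epitope, by 1.59 on the log2 scale (adjusted p = 0.0451). The chains of the gut homing integrin were not called: Itgb7 averaged 1669 ± 87.2 CPM in KO and 1738 ± 52.5 CPM in Ctrl (log2 fold change -0.06 ± 0.07, adjusted p = 0.784), and Itga4 was at -0.07 ± 0.09 on the log2 scale (adjusted p = 0.811); both were picked with their values known. Leaving out KO replicate 1 left 1 lower gene and leaving out KO replicate 3 left 2. The call of Itgb1 ended without KO replicate 1 (adjusted p = 0.0538), Itgae without KO replicate 1 (0.112) or 3 (0.0887) and Fut7 without any library but Ctrl replicate 3 (0.0949 to 0.184).

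Transcription factors and signals known to act on homing receptor genes were mixed. Of 40 tested, 5 fell, 0 rose and 35 did not pass, with a median log2 fold change of 0.0054; of all tested genes 1.39% fell and 0.100% rose. Tbx21, the type 1 factor T-bet, fell to 1.49 ± 0.314 CPM in KO, against 6.02 ± 1.42 CPM in Ctrl (SD, n = 3 each; log2 fold change -1.99 ± 0.24, adjusted p = 0.00798). Maf, a factor of effector Treg, fell by 1.19 (adjusted p = 0.00544) and Batf, an AP-1 family factor, by 0.62 on the log2 scale (adjusted p = 0.0152). Prdm1, which encodes BLIMP1, fell by 0.93 (adjusted p = 0.0275). Gata3, the type 2 factor linked to CCR4 and CCR8, averaged 163 ± 20.7 CPM in KO and 184 ± 20.1 CPM in Ctrl (log2 fold change -0.17 ± 0.11, adjusted p = 0.56). Of other signals, Ahr, the aryl hydrocarbon receptor linked to Gpr15, was at -0.71 ± 0.17 on the log2 scale (adjusted p = 0.113; 0.0176 with the replicate block), and Rara, a retinoic acid receptor linked to Ccr9, at 0.03 ± 0.09 (adjusted p = 0.915). Gata3, Ahr and Rara fall outside the naming rule and were picked with their values known. With the block 10 genes were lower and 2 (Satb1 and Bach2) higher, against 4.39% and 1.97% of all tested genes. The count of lower genes was 3 without Ctrl replicate 1 and 2 without Ctrl replicate 2 or any KO replicate. Batf lost its call without Ctrl replicate 2 (adjusted p = 0.0566) or KO replicate 1 (0.115), 2 (0.0539) or 3 (0.0697), and Prdm1 in 5 of the 6 fits (up to 0.166).

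**Figure D4:**
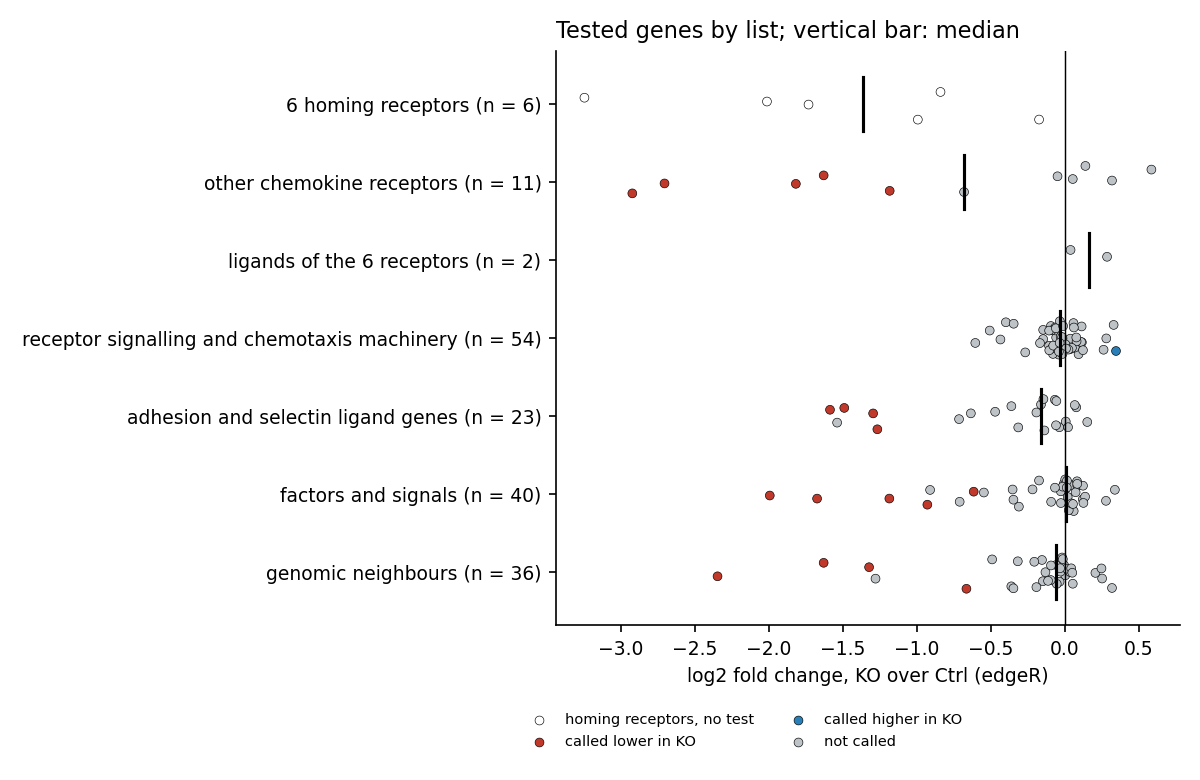
Log2 fold change of KO over Ctrl (horizontal axis, edgeR) of each tested gene by list, with a vertical bar at the list's median; red and blue points were called lower and higher in KO at an adjusted p under 0.05, and the 6 homing receptors are drawn open. The medians are -1.36 for the homing receptors, -0.68 for other chemokine receptors and -0.03 for the signalling machinery.

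Position in the genome was not used to choose the members. Ccr4, Ccr8 and Ccr9 lie on chromosome 9, Ccr10 on 11, Gpr15 on 16 and Ccr6 on 17. Of the 36 genes that are the 3 nearest tested protein-coding neighbours on either side of each member, 4 fell, 0 rose and 32 did not pass, with a median log2 fold change of -0.06, against 1.39% of all tested genes lower. Around Ccr4, Ccr6 and Ccr8, 0 of 18 neighbours were called. The neighbours that fell were Plekhh3 next to Ccr10 (-2.35 ± 0.35, adjusted p = 0.0162), Cldnd1 next to Gpr15 (-0.66 ± 0.09, adjusted p = 0.0105), Crybg3 further out on the same side of Gpr15 (-1.32 ± 0.18, adjusted p = 0.0112) and Cxcr6 near Ccr9. Plekhh3 was low in all libraries, at 0.169 to 0.243 CPM in KO and 0.922 to 1.32 CPM in Ctrl. It had 4, 5 and 4 counts in KO replicates 1 to 3 and met the count filter only through Ctrl, as Ccr10 did. Its call and its part in the count of 4 are therefore not read as a result. Cxcr6 and Ccr9 are near neighbours; levels were 1.94 ± 0.206 CPM in KO against 6.01 ± 1.13 CPM in Ctrl for Cxcr6 and 10.3 ± 1.44 CPM in KO against 11.6 ± 0.727 CPM in Ctrl for Ccr9 (SD, n = 3 each). Plekhh3 lost its call without any library but Ctrl replicate 3 (adjusted p 0.0576 to 0.126), Cldnd1 without any KO replicate (0.0514 to 0.0789) and Crybg3 without Ctrl replicate 1 (0.0587) or KO replicate 1 (0.0913) or 2 (0.0601). The count of lower neighbours was 2 without Ctrl replicate 1 or KO replicate 3, 1 with KO replicate 2 left out and 0 with KO replicate 1 left out. With the replicate block 6 neighbours were lower, Glb1 and Cntnap1 besides the 4, and Filip1l was higher. In that fit 4.39% of all tested genes were lower and 1.97% higher.

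For each member, the 3 genes with the most similar profile were taken by Pearson's r of log2 CPM over the 6 libraries, among 9289 tested genes whose mean reached 5 CPM. For Ccr4 these were Tnfrsf1b, the TNF receptor 2 of Treg (r = 0.997), Podnl1 (0.996) and Slc22a15 (0.996). For Ccr6 they were Adam8 (0.998), Maf (0.997) and Crmp1 (0.996), and for Ccr8 they included Lamc1 (0.996) and Ildr1 (0.992). Cntln (0.999), Rab19 (0.997) and Prdm1 (0.996) were nearest to Ccr10. The nearest to Gpr15 were Ttc39c (0.997), Ccr2 (0.996) and Zdhhc2 (0.995). Those nearest to Ccr9 were Reck (0.980), Colq (0.967) and Terf2ip (0.964), with log2 fold changes between -0.12 and -0.06. With 6 libraries and a genotype difference in most of these genes, such values describe a shared profile only.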

How the data were processed

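The deposited values are raw read counts per Ensembl gene, 1 column per RNA library, named HTSeq counts per the labels. Per the submitters' processing notes, builds mm9 and mm10 and the tools bedtools, Bowtie2, Cufflinks, DESeq2, HISAT2 and SAMtools were in use, with no role stated. Tool versions, annotation and strand setting: not given in the sources used here. The 4 ATAC-seq libraries were not used here. Of 22553 gene IDs, 22522 matched a symbol; promoters and neighbours come from RefSeq, GRCm38.p6.

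Tests ran in R 4.3.3 with edgeR 4.0.16: filterByExpr (minimum count 10, total 15) left 11990 genes, scaled by TMM, fitted by quasi-likelihood and adjusted by Benjamini-Hochberg over all of them; calls are at an adjusted p under 0.05. A count of 3 equals 0.110 to 0.157 CPM, and intervals cover counting error only. Standard errors derive from the F statistic. Alternatives were DESeq2 1.42.0, limma-voom (limma 3.58.1), other scalings, no filter, the replicate block and left-out libraries. Same-numbered libraries deviated together (r of deviations from group means 0.300, 0.596 and 0.537). Between different numbers r was -0.553 to 0.0400. The numbers were therefore used to pair the libraries in the fit with the replicate block, from the data and not from the labels. The main fit has no block, so its calls and p-values leave this pairing out. The labels do not say that pools were independent animals or days, so p-values reflect only how these pools vary, which may be technical. Libraries of a group differed by more than sampling noise (chi-square per degree of freedom 8.75 to 27.4).

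The members, lists and tests were chosen with earlier results of these data known. Named genes were the 6 members, Tfam and Foxp3, and the 3 most similar genes of each member. Each list added up to 4 called genes of smallest adjusted p (or the 2 most abundant where none was called). Genes outside this rule were named after their values were seen, whether or not they are marked so above. Some genes that met this rule or were called are not reported here by name; counts over lists include them.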

Additional observations from a re-analysis of the deposited data

How the results depend on the processing

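With the replicate block, 526 genes were lower and 236 higher over all tested genes, against 167 and 12 without it. DESeq2 gave 264 and 76, and limma-voom 136 lower and 3 higher. Leaving out 1 library gave 26 to 166 lower and 0 to 10 higher, and leaving out both libraries numbered 2 gave 54 and 0. For the 6 homing receptors 1 to 5 were called lower with 1 library left out and 3 without both libraries numbered 2. With limma-voom 4 of the receptors were called lower, and Ccr10 was not. Every alternative kept each log2 fold change of the 6 receptors below 0. Their values stayed within 1 SD of the replicates except within single numbers, where Ccr4 was -2.12 in number 2 and Ccr10 -2.33 in number 3. Other chemokine receptors had 2 to 4 lower with 1 library left out and 3 without both numbered 2. The signalling list had 5 lower and 3 higher with the block, 1 and 2 by DESeq2, 0 higher by limma-voom, 0 to 0 higher with 1 library left out and 0 without both numbered 2. The adhesion list had 7 lower with the block and 1 to 4 with 1 library left out. The transcription factor list had 10 lower and 2 higher with the block, 1 higher by DESeq2, 2 to 6 lower with 1 library left out and 2 without both numbered 2. The neighbours, whose alternatives (like the values within numbers) were chosen after seeing the data, had 1 higher with the block, 0 to 4 lower with 1 library left out and 1 without both numbered 2. Among genes named by rule, the block added calls for Cntln (adjusted p 0.0777 without it, 0.00407 with it) and Ildr1 (0.115 and 0.00606), both lower in KO. By Spearman's rho the 3 most similar genes all stood in the top places for Ccr4 and Ccr9, 2 did for Ccr8, 1 for Ccr10 and 0 for Ccr6 and Gpr15. With 6 libraries these places are shared by many genes. Counting ties, they held 60 genes for Ccr4 and for Ccr6, 31 for Gpr15, 29 for Ccr9 and 22 for Ccr8 and for Ccr10. The causes were not tested. Ccr10, at 6 to 12 counts per KO library, is limited by depth.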
